A study of Mus musculus with 6 samples.

Results

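Collagen prolyl 4-hydroxylases and lysyl hydroxylases were followed in CD8+ T cells of mouse spleen, the lymphocytes that kill infected and tumour cells. The genes were chosen by name as the catalytic prolyl 4-hydroxylase subunits P4ha1 and P4ha2 and the lysyl hydroxylases Plod1, Plod2 and Plod3. Of these 5 genes, 4 were found among the 11175 genes listed with FPKM values (fragments scaled by transcript length and by the mapped fragments of the library), and Plod1 was not analysed here. All cells were of genotype WT and were stimulated in vitro for 48 h with αCD3/αCD28, antibodies that trigger the antigen receptor and its costimulatory partner. In 3 libraries (DOPAC) the stimulation took place with DOPAC, 3,4-dihydroxyphenylacetic acid, a catechol breakdown product of dopamine, and in 3 libraries (Control) without it. No dose, strain or age is given in the labels. They also do not say whether replicates are separate animals or cultures, so the p-values reflect library-to-library spread alone, which could be technical.

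These enzymes work in the endoplasmic reticulum on procollagen chains. Prolyl 4-hydroxylase joins a catalytic alpha subunit, made from P4ha1 or P4ha2, with the beta subunit P4hb (protein disulfide isomerase), and makes the hydroxyproline that stabilises the collagen triple helix. Lysyl hydroxylases make the hydroxylysine used for collagen crosslinks and sugar attachment. Both kinds need oxygen, 2-oxoglutarate, ferrous iron and ascorbate, and P4ha1, P4ha2 and Plod2 are known as genes that low oxygen induces through the transcription factor HIF-1. They have been studied mostly in fibroblasts, which secrete collagen, and T cells are not known as collagen producers.

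Reference promoters are shown first, because HIF-1 binds a short core sequence, the hypoxia response core, that can be looked for in each gene. RefSeq promoter windows, from 250 bases before to 50 bases after the gene start, matched 3 of the 4 measured members on GRCm38.p6, the assembly also called mm10. Each lies on the + strand, and the start used for P4ha2 lies inside its GENCODE gene, not at its first base. Capitals mark the core ACGTG or GCGTG, searched on both strands, so that CACGT and CACGC are the same letters read from the opposite strand, and no matches overlapped.
P4ha1 promoter (chr10:59323046-59323345): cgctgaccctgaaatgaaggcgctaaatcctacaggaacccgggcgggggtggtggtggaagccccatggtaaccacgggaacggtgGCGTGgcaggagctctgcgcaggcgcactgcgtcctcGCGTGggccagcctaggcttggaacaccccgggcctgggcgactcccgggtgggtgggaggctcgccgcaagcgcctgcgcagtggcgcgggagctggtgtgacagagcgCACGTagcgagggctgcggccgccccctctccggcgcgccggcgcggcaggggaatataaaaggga
P4ha2 promoter (chr11:54100674-54100973): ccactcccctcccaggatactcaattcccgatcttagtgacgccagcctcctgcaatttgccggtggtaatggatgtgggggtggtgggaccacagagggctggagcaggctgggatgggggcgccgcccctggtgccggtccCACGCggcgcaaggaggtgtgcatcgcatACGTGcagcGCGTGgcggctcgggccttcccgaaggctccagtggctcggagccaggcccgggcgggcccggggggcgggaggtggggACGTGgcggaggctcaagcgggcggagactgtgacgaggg
Plod3 promoter (chr5:136986769-136987068): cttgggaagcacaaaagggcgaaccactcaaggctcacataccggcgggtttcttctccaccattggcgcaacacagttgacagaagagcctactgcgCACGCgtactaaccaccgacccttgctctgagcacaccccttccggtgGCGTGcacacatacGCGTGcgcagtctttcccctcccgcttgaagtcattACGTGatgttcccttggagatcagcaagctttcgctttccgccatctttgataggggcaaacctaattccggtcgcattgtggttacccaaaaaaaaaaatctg

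The core occurred 3 times in the P4ha1 window, 4 times in that of P4ha2 and 4 times in that of Plod3. At least 3 matches were held by 8.93% of all 32851 windows and by 17.4% of the 9876 windows of genes listed with FPKM values. At least 4 were held by 3.86% of all windows and 7.99% of those of listed genes. The nearest matches to the gene start began 16 bases before it in P4ha1, at base 11 after it in P4ha2 and 54 bases before it in Plod3. Plod3, whose groups overlapped in the libraries below, thus held as many matches as P4ha2, whose groups did not. The letters describe the reference sequence and are no evidence of binding.

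Control replicate 1 stood apart from the other libraries. Its Pearson correlation with them over genes was 0.899 to 0.917, where the other 5 gave 0.974 to 0.992 among themselves (genes are not independent replicates). DOPAC replicate 1 differed from all others in stromal transcripts, which were near 0 there.

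Transcripts of P4ha1, P4ha2 and Plod2 lay higher in every DOPAC library than in every Control library, while Plod3 overlapped between the groups. Ratios of mean FPKM were 5.51 for P4ha2, 2.39 for Plod2, 1.58 for P4ha1 and 1.14 for Plod3. None of the 4 passed limma's moderated test with Benjamini-Hochberg adjustment over all 10887 genes with a mean of at least 1 FPKM (adjusted p = 0.801 for each), and neither did any other gene (0% called). At an unadjusted p under 0.05, 4.19% of the genes were reached, fewer than that threshold reaches on average when no gene differs. These were 2.73% higher and 1.46% lower with DOPAC (297 and 159 genes). This balance turned round without Control replicate 1, with 606 genes higher and 968 lower, and was near even without DOPAC replicate 1, with 123 higher and 128 lower.

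P4ha1, the more abundant of the catalytic prolyl hydroxylase genes, spans chr10:59323296-59373304 in the GENCODE M21 annotation of GRCm38. It measured 35.0, 37.5 and 37.8 FPKM in the DOPAC libraries, against 15.4, 30.7 and 23.6 FPKM in the Control libraries. The DOPAC libraries lay close together, within 1.08-fold of each other, and the Control libraries were farther apart. The groups did not overlap, and the lowest DOPAC value was 1.14 times the highest Control value, that of replicate 2. The log2 fold change of FPKM + 1 was 0.69 ± 0.24 (SE; 95% interval 0.12 to 1.27; limma p = 0.0249, adjusted p = 0.801; two-sided exact permutation p = 0.1). It was 0.43 without Control replicate 1, the lowest library of the gene.

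P4ha2, which encodes the other catalytic subunit expressed here, spans chr11:54100095-54131665. It measured 2.62, 1.70 and 1.83 FPKM in the DOPAC libraries, against 0.269, 0.582 and 0.266 FPKM in the Control libraries. The lowest DOPAC value was 2.93 times the highest Control value, again that of replicate 2. The gene thus stayed below 1 FPKM in every Control library and passed the filter on the mean (1.21 FPKM) only through the DOPAC libraries. Its log2 fold change of FPKM + 1 was 1.15 ± 0.16 (SE; 95% interval 0.76 to 1.54; limma p = 0.000254, adjusted p = 0.801; two-sided exact permutation p = 0.1), which understates the ratio of its low values. That p was the lowest of all 10887 genes in the main fit, a rank that depends on the processing. With the trend against transcript length removed, the limma p of P4ha2 was 0.00154, above the 0.000441 of Plod2. The authors' deposited table, which holds the same libraries, gave P4ha2 a p of 0.000298 with an adjusted p of 0.801. An exact permutation of 3 against 3 libraries cannot go below p = 0.1, the value given here for every gene whose groups did not overlap.

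Plod2, the lysyl hydroxylase that acts on the collagen telopeptides where crosslinks form, spans chr9:92542223-92608428. It measured 10.1, 7.94 and 8.29 FPKM in the DOPAC libraries, against 2.34, 5.002 and 3.67 FPKM in the Control libraries. The lowest DOPAC value was 1.59 times the highest Control value. The order of the Control libraries was the same as for P4ha1, with replicate 2 highest and replicate 1 lowest. The log2 fold change was 1.10 ± 0.23 (SE; 95% interval 0.55 to 1.65; limma p = 0.0023, adjusted p = 0.801; two-sided exact permutation p = 0.1). Its exons share 346 bases with a gene model still to be experimentally tested on the opposite strand, Gm38391, for which no value is used here.

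Plod3, the lysyl hydroxylase that also adds sugars to hydroxylysine, spans chr5:136987019-136996648. It measured 8.65, 8.40 and 9.41 FPKM in the DOPAC libraries, against 6.41, 9.12 and 7.59 FPKM in the Control libraries. Control replicate 2 lay above 2 of the 3 DOPAC libraries. The log2 fold change was 0.18 ± 0.15 (SE; 95% interval -0.18 to 0.55; unadjusted limma p = 0.271; two-sided exact permutation p = 0.3), and 0.07 without Control replicate 1. Plod3 exons share 529 bases with Znhit1 on the opposite strand. The libraries do not mark strand, so these reads cannot be told apart. Znhit1 measured 14.3 ± 1.43 FPKM with DOPAC and 15.8 ± 6.002 FPKM in Control (SD, n = 3 each).

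**Figure D1:**
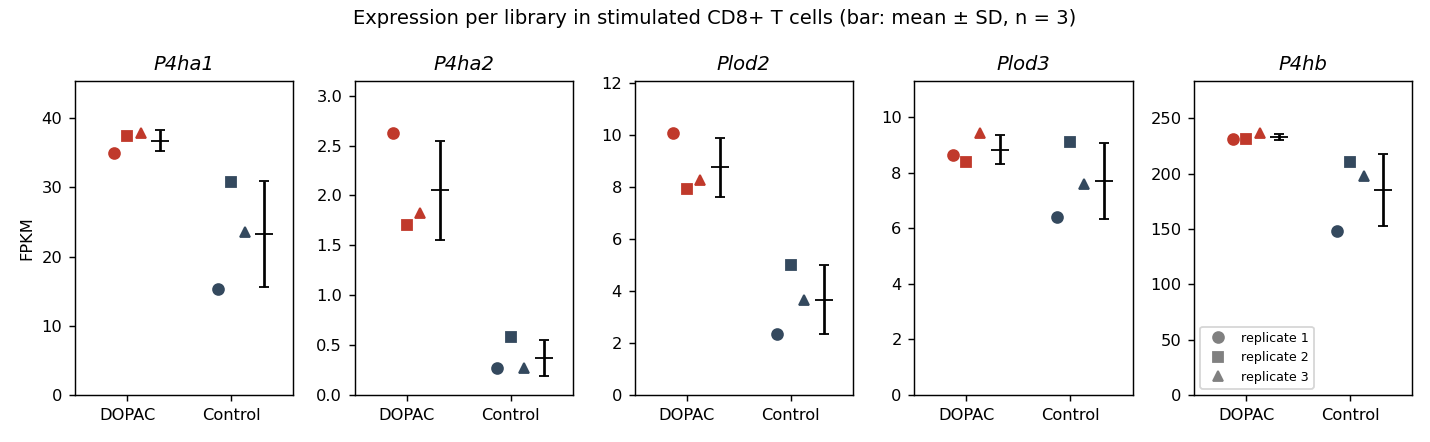
FPKM (linear axes from 0) of P4ha1, P4ha2, Plod2, Plod3 and the beta subunit gene P4hb in each library, with the replicate number as symbol and the mean ± SD (n = 3) beside each group. For P4ha1, P4ha2, Plod2 and P4hb all DOPAC points lie above all Control points, and for Plod3 Control replicate 2 at 9.12 FPKM lies above 2 DOPAC points.

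Counted over the 4 members, 3 had non-overlapping groups with DOPAC higher, as did 12.4% of all genes tested (4.8% were lower in all DOPAC libraries). At an unadjusted p under 0.05 the same 3 were higher, beside 2.73% of all genes. The members were chosen with results of these data known, and P4ha2 entered the test through its DOPAC values, so these counts are a description. Over all genes tested the log2 fold change had a median of 0.066 and ranged from -2.95 to 1.86. The members had 1.15 (P4ha2), 1.10 (Plod2), 0.69 (P4ha1) and 0.18 (Plod3), and no test set them against that spread.

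Within each library FPKM are per length, so the levels of the members can be set side by side. In every Control library the order was P4ha1, Plod3, Plod2 and P4ha2, from high to low. With DOPAC, P4ha1 remained first and P4ha2 last, while Plod2 and Plod3 lay together at 8.77 ± 1.14 and 8.82 ± 0.528 FPKM (SD, n = 3 each). In Control the same genes stood apart, Plod2 at 3.67 ± 1.33 FPKM and Plod3 at 7.71 ± 1.36 FPKM (SD, n = 3 each). The ratio of Plod2 to Plod3 was 1.16, 0.946 and 0.880 in the DOPAC libraries, against 0.365, 0.548 and 0.483 in the Control libraries. As a share of their summed FPKM, Plod2 made up 49.7 ± 3.63% with DOPAC and 31.6 ± 4.44% in Control (SD, n = 3 each). The groups did not overlap, and no test was made of shares computed from the members. Shares are over the lysyl hydroxylase genes with values, without Plod1.

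The catalytic subunits kept very unequal levels. P4ha2 made up 6.97%, 4.35% and 4.61% of the summed P4ha1 and P4ha2 FPKM in the DOPAC libraries, against 1.72%, 1.86% and 1.12% in the Control libraries. P4ha1 was therefore at least 13.3 times as high as P4ha2 in every DOPAC library and at least 52.8 times as high in every Control library. P4hb, the beta subunit gene, measured 232, 232 and 237 FPKM with DOPAC, against 149, 210 and 198 FPKM in Control (log2 fold change 0.34, 95% interval -0.03 to 0.71, limma p = 0.0632, adjusted p = 0.801; two-sided exact permutation p = 0.1; 0.19 without Control replicate 1). Its protein also folds many other secreted proteins. Summed catalytic FPKM came to 16.2%, 16.9% and 16.8% of P4hb FPKM in the DOPAC libraries, against 10.5%, 14.9% and 12.1% in the Control libraries. In all 6 libraries the beta subunit transcripts thus stood well above those of the catalytic subunits, and the groups did not overlap in either measure. In Control replicate 1 FPKM varied with transcript length. Genes of 4000 to 8000 bases, the range of the catalytic genes, had a median log2 deviation of -0.43 there. Those of 2000 to 4000 bases, the range of P4hb, had -0.12. The part of this in its 10.5% was not tested. P4ha3, the other catalytic gene, was not analysed here.

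**Figure D2:**
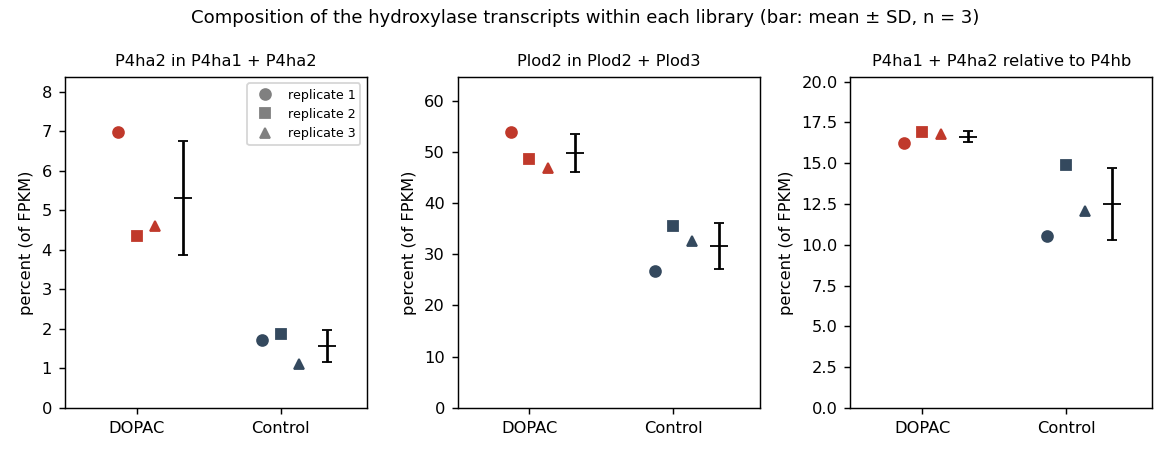
Percent of FPKM per library, with mean ± SD (n = 3), for P4ha2 in P4ha1 + P4ha2, Plod2 in Plod2 + Plod3, and P4ha1 + P4ha2 relative to P4hb. All 3 measures are higher in every DOPAC library than in every Control library, with Plod2 at 49.7% with DOPAC and 31.6% in Control.

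Other genes that act on collagen had values on both sides of 0. Of 22 listed partners in collagen hydroxylation, glycosylation, folding and crosslinking, 10 were tested. None passed the adjusted test. At an unadjusted p under 0.05 there were 0 higher and 3 lower, beside 2.73% and 1.46% of all genes tested. The median log2 fold change was -0.11, against 0.066 over all genes tested. Serpinh1, the collagen chaperone HSP47, measured 0.0900, 2.80 and 3.08 FPKM with DOPAC, against 5.35, 5.57 and 5.55 FPKM in Control (log2 fold change -1.34, 95% interval -2.50 to -0.17; -0.72 without DOPAC replicate 1). The crosslinking oxidase gene Lox measured 0.0545, 2.32 and 2.39 FPKM with DOPAC, against 4.05, 4.58 and 4.04 FPKM in Control. For both genes DOPAC replicate 1 was near 0 and the other DOPAC libraries lay between it and the Control libraries. Fkbp9, a prolyl isomerase gene, had a log2 fold change of -0.70. With a mean of 0.563 FPKM with DOPAC, Fkbp9 passed the filter on the mean only through the Control libraries. P3h1 and Crtap, which form the prolyl 3-hydroxylase complex with Ppib, had groups that overlapped, as had Ppib.

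Collagen chains, the substrates, lay lower with DOPAC. Of 41 listed chains, 11 were in the table and 9 were tested. All 9 had negative log2 fold changes (median -0.93), and 0 passed the adjusted test. In 8, all DOPAC libraries lay below all Control libraries, beside 4.8% of all genes tested. An unadjusted p under 0.05 was reached by 4, beside 1.46% lower over all genes tested. Col5a2 and Col12a1, which are in both counts, had means of 0.82 and 0.78 FPKM with DOPAC. They passed the filter on the mean only through the Control libraries, so these counts are a description. Col3a1, a fibrillar chain, measured 0.0960, 2.09 and 2.28 FPKM with DOPAC, against 4.34, 4.84 and 4.61 FPKM in Control. Col5a2, Col12a1 and Col5a1 had log2 fold changes of -0.93, -0.81 and -0.88. Without DOPAC replicate 1 the values of Col5a2, Col12a1 and Col5a1 were -0.58, -0.45 and -0.46, and that of Col3a1 was -0.81, against -1.33 with all libraries. The median over the chains was then -0.47. Col2a1 and Col11a1 were listed at 0 in DOPAC replicate 1.

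Fibroblast and stromal markers lay lower with DOPAC, as the collagen chains did, but the lists share genes. Of 15 listed fibroblast and stromal markers, 9 were in the table, 4 of them not collagens (Fn1, Sparc, Lum, Thbs1). The rest are collagen chains already counted above. Summed over all 9, collagens included, the level was 1.18, 38.5 and 39.7 FPKM in the DOPAC libraries, against 71.8, 66.4 and 62.2 FPKM in the Control libraries. In these bulk libraries fewer cells of a type and less RNA per cell cannot be told apart. In DOPAC replicate 1, where the stromal markers were lowest, P4ha2 and Plod2 were at their highest and P4ha1, at 35.0 FPKM, was at its lowest among the DOPAC libraries. Without that library P4ha2 had a log2 fold change of 1.02, Plod2 of 1.01 and P4ha1 of 0.73. Of 11 macrophage markers, 3 were in the table, at summed levels of 4.77 to 13.02 FPKM with DOPAC and 15.4 to 35.2 FPKM in Control. Lyz2 and Cd68, the highest of them, had log2 fold changes of -1.93 and -0.45. The part of stromal or macrophage transcripts in the members' values was not tested.

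**Figure D3:**
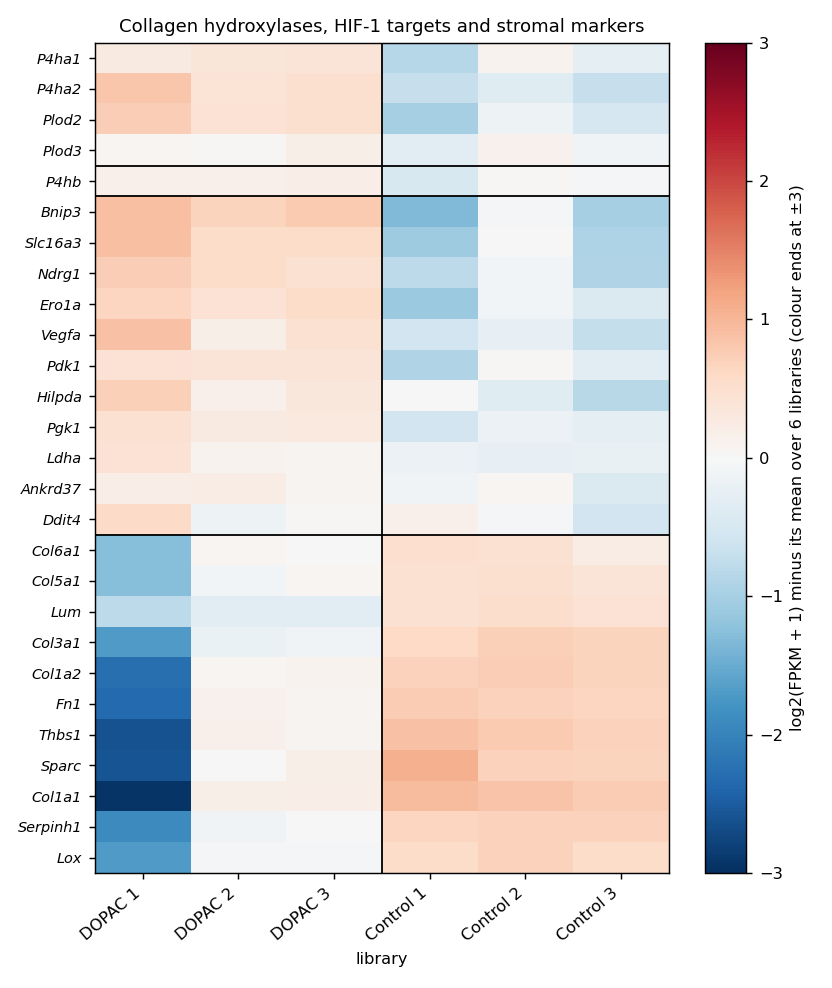
log2(FPKM + 1) minus its mean over 6 libraries, as colour, for the 4 members, P4hb, 11 HIF-1 target genes, and 9 stromal markers with Serpinh1 and Lox, by library. P4ha1, P4ha2 and Plod2 lie above their means in the DOPAC columns, as do most HIF-1 targets, and stromal genes are darkest blue in DOPAC replicate 1, where their markers summed to 1.18 FPKM.

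T cell markers were high throughout. All 8 listed T cell markers were in the table and overlapped between the groups, with summed levels of 848 to 970 FPKM with DOPAC and 884 to 1016 FPKM in Control. Cd8a, a chain of the CD8 coreceptor, measured 186 ± 7.499 FPKM with DOPAC and 184 ± 27.2 FPKM in Control, and Thy1 measured 163 ± 17.5 FPKM with DOPAC and 192 ± 40.1 FPKM in Control (SD, n = 3 each). Of the 3 CD4 T cell, 6 dendritic cell and 5 neutrophil markers, 0 were in the table. B cell marker Cd79b measured 1.87 ± 0.643 FPKM with DOPAC and 1.96 ± 0.487 FPKM in Control (SD, n = 3 each). Endothelial markers summed to between 7.16 and 8.33 FPKM with DOPAC and between 6.72 and 8.66 FPKM in Control, mostly Pecam1 and the rest Egfl7. Erythroid globins Hbb-bs and Hba-a1 summed to 0.280 to 3.02 FPKM with DOPAC, against 2.72 to 10.4 FPKM in Control (log2 fold changes -1.30 and -0.77). Control replicate 1 held the 10.4 FPKM, and without it the log2 fold changes were -0.84 for Hbb-bs and -0.35 for Hba-a1. Of the 3 NK cell markers Eomes, which T cells also express, was in the table (log2 fold change -0.37).

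Among other 2-oxoglutarate dependent protein hydroxylases, the HIF prolyl hydroxylases Egln3 and Egln1 had the highest log2 fold changes. Of 19 listed genes 15 were tested. None passed the adjusted test, and the median log2 fold change was 0.074, close to that of all genes. At an unadjusted p under 0.05, 3 were higher and 0 lower, beside 2.73% and 1.46% of all genes tested. Egln3 measured 47.1, 32.3 and 43.4 FPKM with DOPAC, against 12.7, 22.7 and 14.0 FPKM in Control (log2 fold change 1.29, 95% interval 0.69 to 1.88). Egln1 measured 44.9, 44.5 and 44.0 FPKM with DOPAC, against 19.1, 36.5 and 25.6 FPKM in Control (0.74, 95% interval 0.20 to 1.28). As for P4ha1 and Plod2, Control replicate 2 was the highest of the Control libraries for both. Jmjd6, a lysyl hydroxylase of splicing proteins, had 0.32 (95% interval 0.01 to 0.64). Egln2, a HIF prolyl hydroxylase not known to be induced by low oxygen, had -0.27 (95% interval -0.58 to 0.04). The other 11 genes had overlapping groups, as Plod3 had.

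**Figure D4:**
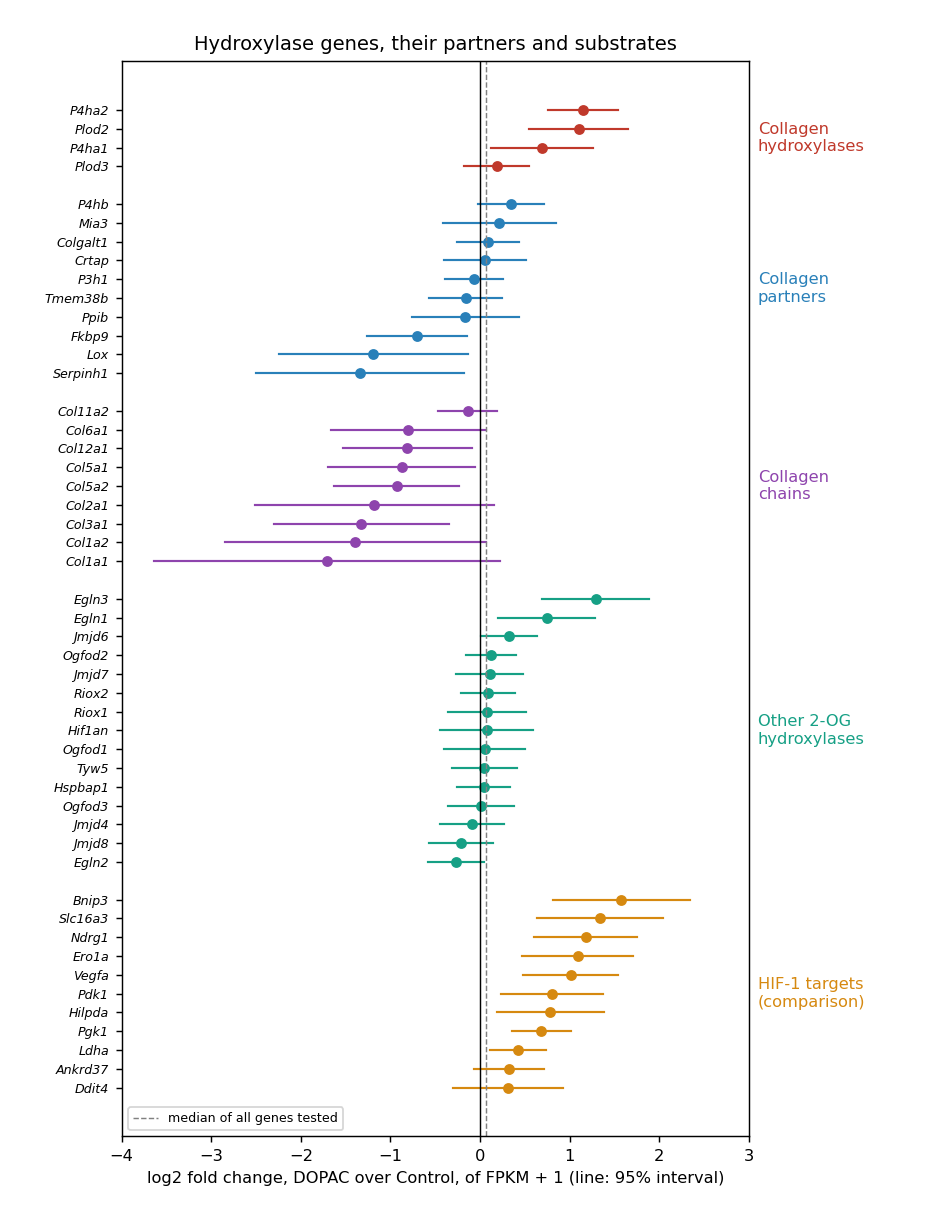
log2 fold change of FPKM + 1, DOPAC over Control, with its 95% interval from limma, for the members, collagen partners, collagen chains, other 2-oxoglutarate (2-OG) dependent hydroxylases and HIF-1 targets. P4ha2, Plod2 and P4ha1 (1.15, 1.10 and 0.69) lie to the right with Egln3, Egln1 and most HIF-1 targets, and collagen chains lie to the left of 0.

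Among genes that supply the cofactors, the glucose transporters had the highest log2 fold changes. Of 14 listed genes for ascorbate, iron and 2-oxoglutarate supply, 12 were tested, with 0 past the adjusted test and a median log2 fold change of 0.15. At an unadjusted p under 0.05, 2 were higher and 0 lower, beside 2.73% and 1.46% of all genes tested. Slc2a3 and Slc2a1, glucose transporters that also carry dehydroascorbate, had log2 fold changes of 1.49 (95% interval 0.69 to 2.28) and 0.81 (95% interval 0.37 to 1.25). The ascorbate transporter gene Slc23a2 measured 6.98, 6.58 and 6.43 FPKM with DOPAC, against 3.28, 5.85 and 5.92 FPKM in Control (0.38, 95% interval -0.12 to 0.88; 0.15 without Control replicate 1). Tfrc, which encodes the transferrin receptor of iron uptake, had 0.66 (95% interval -0.12 to 1.44; 0.26 without Control replicate 1). Isocitrate dehydrogenase genes, which form 2-oxoglutarate, lay between -0.03 and 0.21. Among substrates other than collagens, 1 of 22 listed genes was tested, Ago2, the RNA interference protein that human type I prolyl 4-hydroxylase modifies. Ago2 measured 24.9, 29.5 and 29.5 FPKM with DOPAC, against 11.9, 33.9 and 29.3 FPKM in Control, and its groups overlapped.

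Classical HIF-1 targets set beside the members had log2 fold changes between 0.31 and 1.58, a range that holds P4ha1, P4ha2 and Plod2 and lies above Plod3 at 0.18. Of 14 listed symbols 11 were tested, all with positive log2 fold changes (median 0.80). Of these, 10 had all DOPAC libraries above all Control libraries, beside 12.4% of all genes tested. An unadjusted p under 0.05 was reached by 9, beside 2.73% higher over all genes tested, and 0 passed the adjusted test. Bnip3, which marks mitochondria for removal, had a log2 fold change of 1.58, the stress-responsive gene Ndrg1 1.18, the growth factor gene Vegfa 1.01 and the glycolysis gene Pgk1 0.68. At the low end were Ddit4 at 0.31, Ankrd37 at 0.32 and the lactate dehydrogenase gene Ldha at 0.42, named here after their values were seen. P4ha2 and Plod2, at 1.15 and 1.10, lay near Ndrg1 and Vegfa, and P4ha1, at 0.69, near Pgk1.

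Likeness of profile was measured as the root mean square difference of mean-centred log2(FPKM + 1) over the 6 libraries, among 6298 named genes of at least 5 FPKM on average. Nearest to P4ha1 were Pfkp, Hk2 and Egln1, at 0.060, 0.069 and 0.073. P4ha2 had Asns, Vegfa and Gys1 nearest, at 0.11, 0.12 and 0.15. Nearest to Plod2 were Ero1a, an oxidase of the endoplasmic reticulum, the pseudogene Bnip3l-ps and the interleukin receptor gene Il7r, at 0.078, 0.087 and 0.10. Plod3, whose values varied least, had Actb, Mfap1a and Bag5 nearest, at 0.041, 0.045 and 0.047. The neighbours depend on the processing: with a pseudocount of 0.5, 0 of the 3 of P4ha2 were kept, and without Control replicate 1 the number kept was 1 for P4ha1, 0 for P4ha2, 2 for Plod2 and 0 for Plod3. The fewest kept when any single library was left out were 0 for P4ha1 (without Control replicate 3) and 1 for Plod2 (without DOPAC replicate 1).

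In Control replicate 1, transcripts with a summed exon length over 4000 and up to 8000 bases, a range that holds all 4 members (4114 to 6239 bases), had a median deviation of -0.43 on the log2 scale from the mean of the other libraries. The members deviated there by -1.03 (P4ha1), -0.82 (P4ha2), -1.19 (Plod2) and -0.37 (Plod3). The other libraries include all those with DOPAC, so the members' deviations also hold the difference between the groups. P4ha2 deviated by -0.82 in Control replicate 3 as well, so it was not lower in Control replicate 1 than there. With the trend against length removed from every library, the log2 fold changes were 0.61 for P4ha1, 1.02 for P4ha2, 0.99 for Plod2 and 0.094 for Plod3. Without Control replicate 1, P4ha2 had 1.10 and Plod2 0.88, and the limma adjusted p of P4ha1, P4ha2 and Plod2 was 0.432 with the length trend removed and 0.295 without that library. The FPKM sums of the 6 libraries lay between 283818 and 316035, and the depth behind the low P4ha2 values is unknown, because no read counts are given with the FPKM.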

How the data were processed

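RNA was sequenced from 3 DOPAC and 3 Control libraries, grouped by their library names. TRIzol was used for RNA, SMART-Seq HT for full-length cDNA and Nextera XT for paired-end libraries, per the labels; such libraries do not mark strand. Cutadapt 1.9, HISAT2 2.2.1 and build mm10 are named, per the submitters' processing notes. For the FPKM estimator, the annotation and any filter, the sources used here give nothing. The authors deposited FPKM values, a log2 fold change and p-values in 1 table, per the file headers. The deposited log2 fold change equals the difference of mean log2(FPKM + 1), and the deposited p-values are used only where the authors' table is named.

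From the FPKM, log2(FPKM + 1) was computed and 288 genes with a mean under 1 FPKM were left out. R 4.3.3 with limma 3.58.1 fitted DOPAC against Control with a variance trend, with Benjamini-Hochberg adjustment over 10887 genes at 0.05, and was tested on simulated data. Exact permutation tests used scipy 1.17.1. Lists are described by counts and medians, with no set test. The depth of the libraries is unknown. Members, lists and tests were chosen with earlier results of these data known. Named genes were the members, P4hb, P4ha3, up to 4 genes with the smallest p per pathway list, 3 nearest profiles per member and the 2 highest markers per cell type.

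Same-numbered libraries deviated together over genes (correlations 0.341, 0.159 and 0.282), all over 0.1, the level at which the numbers were treated as possibly pairing samples. The main fit was unpaired, as are the estimates, intervals and limma p-values in the Results. No shared animal or day is named in the labels. Deviations were taken from each group's mean, so they cancel within a group. Likeness of the first replicates alone thus makes replicates 2 and 3 correlate across groups, so these correlations cannot show pairing. The correlation was 0.24 between DOPAC replicate 3 and Control replicate 2 and 0.189 between DOPAC replicate 2 and Control replicate 3. Both exceeded that of the second replicates. Both first replicates lay above their group mates in genes of 500 to 1000 bases. Median log2 deviations there were 0.024, -0.15 and -0.19 in DOPAC replicates 1 to 3, and 0.60, -0.24 and -0.10 in Control. At 2000 to 4000 bases only DOPAC replicate 1 did. The part of length in the 0.341 was not tested. The replicate block was an alternative, beside other pseudocounts, filters, scalings, variance models, removal of the length trend and leaving out each library. Leaving out both first replicates was added after seeing the data. Lengths and positions came from GENCODE M21, which held 99.2% of the genes tested.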

Additional observations from a re-analysis of the deposited data

How the results depend on the processing

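The log2 fold changes of P4ha1, P4ha2, Plod2 and Plod3 stayed positive, and none passed the adjusted test, under every alternative in which they could be fitted. The ranges were 0.41 to 0.91 for P4ha1, 0.93 to 2.23 for P4ha2, 0.75 to 1.30 for Plod2 and 0.034 to 0.30 for Plod3; the lowest value of each came with library weights, and the highest of P4ha2 with a pseudocount of 0.1. P4ha2 could not be fitted with the filter of 5 FPKM. The lowest limma adjusted p over these alternatives was 0.181 for P4ha2. With the replicate block the count of genes past the threshold was 0, P4ha2 had 1.15 with an adjusted p of 0.698, and the block changed no call. The count past the threshold was 2 with library weights and 2 without both first replicates, and 0 to 2 when single libraries were left out (2 without Control replicate 1); these genes, none a hydroxylase and named after their values were seen, were Gm49510 in all 3 cases, with Spp1 in the first and last and Lyz2 without both first replicates. Genes at an unadjusted p under 0.05 numbered 123 to 634 higher (297 as reported) and 67 to 1156 lower (159 as reported), and lower outnumbered higher without Control replicate 1 (606 higher, 968 lower; 607 and 1078 with the replicate block), without both first replicates (634 and 1156), without DOPAC replicate 1 (123 and 128) and with library weights (443 and 465). A filter of 5 FPKM gave a median of 0.088 for the collagen partners. It left out Serpinh1, Lox, Fkbp9, P3h1 and Tmem38b, all with negative log2 fold changes. A pseudocount of 0.1, which widens log2 differences between low values, gave -1.90 for the collagen chains. Leaving out both first replicates gave a Plod2 share difference of 13.7 percentage points, against 18.2 with all libraries. The cause of that last change was not tested. Ago2, at 0.27, turned to -0.10 with library weights and to -0.094 without both first replicates and with the replicate block without Control replicate 1, and ranged from -0.17 to 0.55 when single libraries were left out.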
